A study of Mus musculus with 6 samples.

Results

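The 7 genes described here encode the enzymes that write, copy and begin to remove DNA methylation: the DNA methyltransferases Dnmt1, Dnmt3a and Dnmt3b, the maintenance cofactor Uhrf1 and the TET dioxygenases Tet1, Tet2 and Tet3. They were chosen by name, and all 7 were found by symbol among the 37620 gene rows of the table; all 7 were also among the 14391 genes with a mean normalized count of at least 10 that entered the test. A normalized count is the number of reads of a gene divided by a size factor of its library. RNA came from granulocyte-macrophage progenitors (GMPs), bone marrow progenitors of granulocytes and monocytes, which were sorted for c-Kit, CD34 and Fc receptor staining and for the lack of Sca1 and of Lineage markers. The control group was 3 libraries from C57BL/6 mice of genotype Bap1 f/f, in which both Bap1 alleles carry loxP sites and no Cre is present. The other group was 3 libraries from Mx1-Cre Bap1 f/f mice, labelled BAP1 KO. Both groups received polyI:polyC (pIpC), a double-stranded RNA mimic that induces interferon and, through the interferon-responsive Mx1 promoter, Cre. The labels give an age of 65 days and pIpC at 42 days for all mice; the series text gives a younger age for pIpC. Mx1-Cre acts in many tissues, and it was carried by the knockout group alone, so Cre activity and loss of Bap1 cannot be told apart. The labels do not state whether the libraries of a group are from separate animals, so the p-values measure the spread between these libraries, part of which may be technical.

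Methylation of cytosine in CpG dinucleotides is set on unmethylated DNA by DNMT3A and DNMT3B and copied to the daughter strand at replication by DNMT1, which UHRF1 brings to hemimethylated CpGs. TET enzymes oxidize 5-methylcytosine in steps, using oxygen, iron and 2-oxoglutarate, and the oxidized bases are lost through replication or excised by TDG and base excision repair. In blood, DNMT3A and TET2 are known for mutations in clonal hematopoiesis and myeloid leukemia.

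The libraries held 19.5 to 25.9 M gene reads. Bap1, the deubiquitinase gene targeted in the knockout, had normalized counts of 1343, 998.5 and 1076 in control and of 2671, 3309 and 2968 in the libraries labelled knockout (log2 fold change 1.39, limma adjusted p = 6.07e-05). This goes against the label, and since a count over the whole gene includes exons outside a deletion, it does not check the deletion. Every direction below is therefore that of the libraries labelled knockout. Of 14 GMP genes fixed as a check of the sort, which include Mpo, Elane and Cebpa, 0 were without reads in either group. Of these genes 6 rose and 4 fell, against 11.8% higher and 15% lower among all genes tested. Those that fell were the sort-gate genes Cd34 (11500 ± 296.5 to 3963 ± 243.6 normalized counts, SD, n = 3, limma adjusted p = 5.04e-06) and Fcgr3 (13250 ± 728.1 to 7836 ± 1485, limma adjusted p = 0.00198), beside Csf1r and Irf8. Kit, which encodes c-Kit of the gate, rose (1096 ± 86.07 to 1524 ± 151.5, limma adjusted p = 0.0214), as did Elane, Ctsg, Ms4a3, Cebpe and Gfi1. The libraries thus differ in genes of the gate itself, in both directions.

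The promoters of the 3 genes that passed the test are shown with that of Tet2, because CpG is the dinucleotide on which these enzymes act. Each line gives the 250 bases before a transcription start, 5′ to 3′ on the strand of the gene, with CpG in capitals. The sequences are RefSeq's on GRCm38.p6, a later build than the mm9 that the submitters' processing notes name. They are Tet1 (chr10:62887325-62887574, minus strand), Tet2 (chr3:133544391-133544640, minus strand), Dnmt3b (chr2:153649199-153649448, plus strand) and Dnmt3a at an upstream start (chr12:3806730-3806979) and at a start farther inside the gene (chr12:3891494-3891743), both on the plus strand.
Tet1: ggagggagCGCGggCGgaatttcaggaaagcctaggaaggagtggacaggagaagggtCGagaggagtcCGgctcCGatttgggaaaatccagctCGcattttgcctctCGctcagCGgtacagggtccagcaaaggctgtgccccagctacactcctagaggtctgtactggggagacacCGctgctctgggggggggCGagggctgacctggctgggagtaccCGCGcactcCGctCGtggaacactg
Tet2: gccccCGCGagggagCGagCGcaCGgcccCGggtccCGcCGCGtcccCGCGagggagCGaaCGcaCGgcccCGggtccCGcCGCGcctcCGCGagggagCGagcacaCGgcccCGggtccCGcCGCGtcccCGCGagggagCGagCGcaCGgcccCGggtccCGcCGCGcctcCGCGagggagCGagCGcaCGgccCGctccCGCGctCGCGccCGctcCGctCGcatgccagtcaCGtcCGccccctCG
Dnmt3b: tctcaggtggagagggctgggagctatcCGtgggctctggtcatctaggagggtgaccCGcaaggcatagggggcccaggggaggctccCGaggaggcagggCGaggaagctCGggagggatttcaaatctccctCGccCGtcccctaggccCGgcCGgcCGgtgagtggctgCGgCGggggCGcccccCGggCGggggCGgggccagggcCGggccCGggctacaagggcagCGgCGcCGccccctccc
Dnmt3a, upstream start: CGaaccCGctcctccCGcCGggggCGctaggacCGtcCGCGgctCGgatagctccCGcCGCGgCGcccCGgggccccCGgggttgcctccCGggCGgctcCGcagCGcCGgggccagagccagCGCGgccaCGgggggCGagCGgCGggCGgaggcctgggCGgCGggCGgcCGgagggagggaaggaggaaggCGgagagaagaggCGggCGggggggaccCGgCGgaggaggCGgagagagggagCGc
Dnmt3a, internal start: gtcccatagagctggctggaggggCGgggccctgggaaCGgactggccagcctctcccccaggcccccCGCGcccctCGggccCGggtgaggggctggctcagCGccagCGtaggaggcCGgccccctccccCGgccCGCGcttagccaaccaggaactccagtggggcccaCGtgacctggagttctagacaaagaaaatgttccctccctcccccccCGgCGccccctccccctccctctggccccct

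All 7 genes had RefSeq starts, 12 in all. The Tet1 window held 15 CpGs, more than 72.7% of the 32851 windows of the same length, whose median was 6. Tet3 was close to it with 17. The Tet2 window held 51 CpGs, more than 99.9% of windows. Dnmt3a had 38 and 40 CpGs at its overlapping upstream starts and 15 at the internal start, and Dnmt3b had 21. Uhrf1 ranged from 10 to 30 CpGs over its starts and Dnmt1 from 2 to 26. The GC box GGGCGG, searched on both strands, occurred at least once in every window of Tet1, Tet2, Tet3, Dnmt3a, Dnmt3b and Uhrf1. It occurred in 1 of the 3 windows of Dnmt1 and in 32.7% of all windows. The box itself contains a CpG, and the windows compared were not matched for CpG or GC content. DNA methylation itself was not analysed here, and the counts are summed over a gene, so reads from different starts or isoforms cannot be told apart.

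RNA levels of the 7 genes took different directions in the libraries labelled knockout: Tet1 was lower, Dnmt3a and Dnmt3b were higher, and Dnmt1, Uhrf1, Tet2 and Tet3 did not pass the test. The test was limma on log2(normalized count + 1), adjusted over all 14391 genes at a threshold of 0.05. By this rule 2 of the 7 rose and 1 fell. Over all genes tested, 26.8% were called, 11.8% higher and 15% lower. The median log2 fold change of the 7 genes was 0.17, and that of all genes tested was 0.01.

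**Figure D1:**
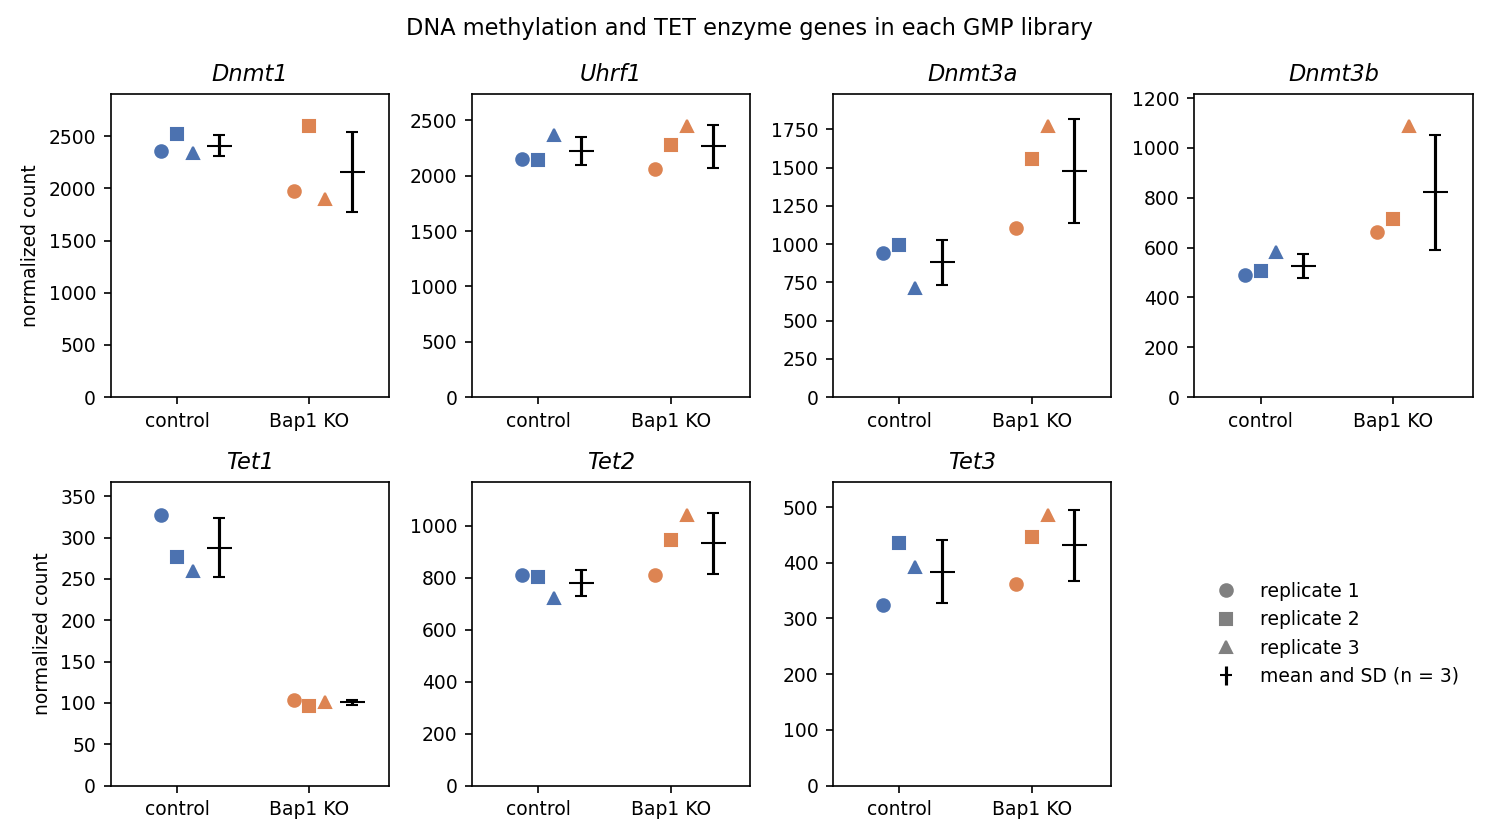
Normalized count (vertical axis, from 0) of each of the 7 genes in the 3 control and 3 Bap1 KO libraries, with 1 point per library and the mean and SD of each group beside them. Tet1 sits between 259.4 and 327.9 in control and between 96.83 and 103.5 in Bap1 KO, while the Dnmt1, Uhrf1, Tet2 and Tet3 groups overlap.

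Dnmt1, the maintenance methyltransferase, had normalized counts of 2362, 2523 and 2339 in control and of 1977, 2597 and 1898 in the libraries labelled knockout. The groups overlapped, since knockout replicate 2 was above every control and the other knockout replicates below. The log2 fold change was -0.17 (SE 0.14, 95% interval -0.47 to 0.13, limma adjusted p = 0.387). Uhrf1, which recognizes hemimethylated CpGs and recruits DNMT1, had 2151, 2143 and 2367 in control and 2064, 2281 and 2448 in the libraries labelled knockout. Its ranges overlapped almost fully, and its log2 fold change was 0.03 (SE 0.12, interval -0.23 to 0.29, limma adjusted p = 0.893). The sign of this near-zero value turned after a correction for GC content and length (-0.04) and without knockout replicate 3 (-0.03). For both genes the interval excludes a change of 1.5-fold or more in either direction.

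Both genes are copied mainly in cells that replicate their DNA, so a list of 31 S phase genes is given beside them. Of these, 0 rose and 4 fell, with a median log2 fold change of -0.11, against 11.8% higher and 15% lower among all genes tested, so the share that fell is near the background. After GC and length correction 3 rose and 2 fell, against 14.4% and 16.1% of all genes. The 3 with the smallest p were Cdc6, which loads the replicative helicase (4250 ± 339.7 to 2517 ± 230.7 normalized counts, SD, n = 3, limma adjusted p = 0.000937), Ccne2, an E-type cyclin (2944 ± 275.9 to 1661 ± 311.1, limma adjusted p = 0.00188), and Pola1, the catalytic subunit of DNA polymerase alpha (1514 ± 24.77 to 1084 ± 273.6, limma adjusted p = 0.0409). The other one, Prim1, a primase subunit named after its values were seen, had a log2 fold change of -0.47 (limma adjusted p = 0.0421). With edgeR on recovered reads the count that fell was 2, and leaving out any 1 library other than knockout replicate 1 also gave 2 (6 without that one). The part of S phase in the levels of Dnmt1 and Uhrf1 was not tested.

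Dnmt3a, a de novo methyltransferase expressed through hematopoiesis, rose in the libraries labelled knockout. Its normalized counts were 939.1, 990.8 and 712.2 in control and 1103, 1558 and 1771 in the libraries labelled knockout. The groups did not overlap, but the gap between control replicate 2 and knockout replicate 1 was narrow. The means of 880.7 ± 148.2 and 1477 ± 341.2 (SD, n = 3 each) differed 1.68-fold, and the log2 fold change was 0.73 (SE 0.19, 95% interval 0.31 to 1.15, limma adjusted p = 0.0154). Dnmt3aos, annotated antisense to Dnmt3a and overlapping its exons, averaged 0.592 and 4.75 normalized counts of its own in the same groups. Use of strand in counting is unknown, so antisense reads within shared exons cannot be told apart from those of Dnmt3a. The call was lost without control replicate 3 (0.59, limma adjusted p = 0.073), knockout replicate 2 (0.68, 0.0593) or knockout replicate 3 (0.59, 0.0506).

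Dnmt3b, the second de novo methyltransferase, best known from early embryos, rose less firmly. It stood at 489.6, 506.4 and 582.1 normalized counts in control and at 662.4, 716.3 and 1088 in the libraries labelled knockout. The groups did not overlap, and knockout replicate 3 was far above the other libraries. The means of 526 ± 49.26 and 822.3 ± 231.9 (SD, n = 3 each) differed 1.56-fold, and the log2 fold change was 0.61 (SE 0.19, interval 0.19 to 1.04, limma adjusted p = 0.0371). The call was lost without knockout replicate 3, where the log2 fold change was 0.39 (limma adjusted p = 0.103), and also without knockout replicate 2 (0.69, 0.052) or control replicate 1 (0.56, 0.107), 2 (0.59, 0.111) or 3 (0.69, 0.0615).

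Knockout replicate 3 had the highest value of Dnmt3a, Dnmt3b, Uhrf1, Tet2 and Tet3 of all 6 libraries and the lowest of Dnmt1. It also had the fewest gene reads, 19.5 M, and the largest share of unaligned reads, 11.62% against 6.3 to 8.37% in the others. The part of these library properties in the levels was not tested.

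Tet1, the dioxygenase best known from embryonic stem cells and germ cells, fell in the libraries labelled knockout. Its normalized counts were 327.9, 276.1 and 259.4 in control and 103.5, 96.83 and 101.6 in the libraries labelled knockout, which corresponds to 289 to 369 and 89 to 97 recovered reads. The groups lay far apart, and the knockout libraries differed little among themselves. The means of 287.8 ± 35.69 and 100.6 ± 3.431 (SD, n = 3 each) differed 2.86-fold, and the log2 fold change was -1.50 (SE 0.22, 95% interval -1.98 to -1.02, limma adjusted p = 0.000596). Over the 16 other settings tried, the log2 fold change ran from -1.57 to -1.39 and the adjusted p stayed at 0.00512 or below.

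Tet2, the TET gene most often mutated in myeloid disease, had normalized counts of 810.3, 803.6 and 720.2 in control and of 808.6, 944.3 and 1043 in the libraries labelled knockout. Knockout replicate 1 lay within the control range and the other knockout replicates above it. The log2 fold change was 0.25 (SE 0.15, interval -0.07 to 0.58, limma adjusted p = 0.225). Over the 16 other settings it ran from 0.17 to 0.39, and none gave a call. The lowest adjusted p came after GC and length correction (0.39, SE 0.14, limma adjusted p = 0.0535). Tet3, the TET enzyme known from the zygote and from neurons, had 324.3, 435.7 and 392.2 in control and 361.6, 446.7 and 486.5 in the libraries labelled knockout. These groups overlapped, and the log2 fold change was 0.17 (SE 0.19, interval -0.25 to 0.58, limma adjusted p = 0.549). The intervals of both genes reach up to 0.58, so they do not exclude a rise of slightly under 1.5-fold.

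**Figure D2:**
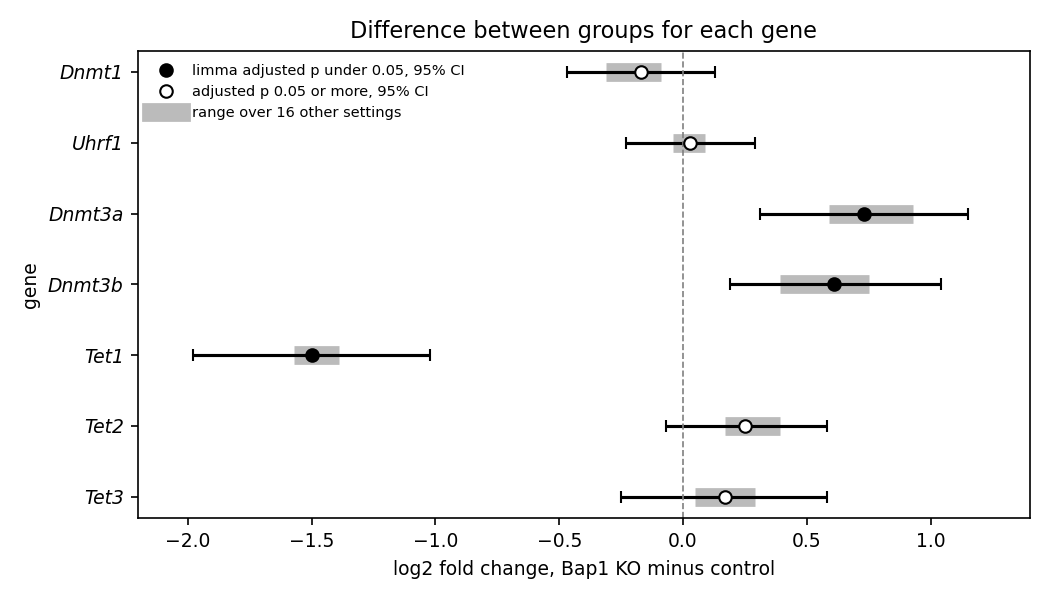
Log2 fold change (Bap1 KO minus control, horizontal axis) of each of the 7 genes with its 95% interval from limma, filled where the adjusted p was under 0.05, over a grey bar that spans the values under 16 other settings. Only the intervals of Dnmt3a, Dnmt3b and Tet1 exclude 0, and the Tet1 interval lies wholly below the other 6.

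Marker lists of other blood cells are given beside Tet1, to be read against the 11.8% of all genes tested that were higher and the 15% that were lower. Of 8 tested B lymphoid markers 8 fell, and their summed normalized counts were 2298 to 2757 in control and 1103 to 1428 in the libraries labelled knockout, with Pax5 and Vpreb3 without reads in all 3 of the latter. Of 10 dendritic cell markers 8 fell, with sums of 9259 to 25350 and 2138 to 5405. Of 9 tested monocyte markers 7 fell. The monocyte sums overlapped at 82300 to 93340 and 51660 to 105300. Most of each of these sums was Ly6c2, which was not called (61440 ± 4805 to 77620 ± 27250, SD, n = 3, limma adjusted p = 0.418). Of 8 mast cell and basophil markers 4 fell and 1 rose, with sums of 50710 to 61030 and 20060 to 29970. In the same libraries 3 of 9 stem and multipotent progenitor genes fell and 0 rose, and 1, Procr, had no reads in any of the 3. The other lists were the erythroid (4 of 10 tested genes rose and 1 fell), megakaryocyte (0 of 8 rose and 4 fell), T and NK (1 of 5 rose and 3 fell) and neutrophil maturation genes (1 of 10 rose and 0 fell). In RNA of a bulk sort, fewer cells of a type and less RNA per cell cannot be told apart, and the part of these markers in the Tet1, Dnmt3a and Dnmt3b results was not tested.

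Levels of different genes can be compared only per length, so each normalized count was divided by the gene's exon length in kilobases. This assumes even coverage along the exons, which was not checked, and the family shares below rest on it too. In control the order was Uhrf1 (521 ± 29.8 per kilobase, SD, n = 3), Dnmt1 (326 ± 13.6), Dnmt3b (103 ± 9.65), Dnmt3a (52.9 ± 8.91), Tet2 (46.1 ± 2.97), Tet3 (23.0 ± 3.36) and Tet1 (18.6 ± 2.31). The ranges of Dnmt3a and Tet2 overlapped, as did those of Tet3 and Tet1, while all other neighbours were apart. In the libraries labelled knockout the order of the genes was the same, and no neighbours overlapped: Dnmt3a was at 88.8 ± 20.5 and Tet2 at 55.2 ± 6.96, and Tet3 was at 25.9 ± 3.82 and Tet1 at 6.51 ± 0.222. The levels depend on the length chosen, since the exons of Dnmt3a add up to 16642 bases and its longest annotated transcript has 9685. With longest transcripts the ranges of Dnmt3b and Dnmt3a overlapped in the libraries labelled knockout (153 to 252 and 114 to 183 per kilobase). In control, those of Tet3 and Tet1 were then apart (29.7 to 40.0 and 18.1 to 22.8 per kilobase).

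Within the TET family, Tet2 made up the largest share of the summed level per kilobase in every library. The share of Tet1 was 23.9, 19.5 and 20.2% in control and 8.78, 7.04 and 6.74% in the libraries labelled knockout. The share of Tet2 was 54.2, 52.0 and 51.5% against 62.8, 62.9 and 63.4%, and that of Tet3 was 26.2 ± 3.75% against 29.4 ± 0.915% (SD, n = 3 each). The Tet1 and Tet2 shares did not overlap between groups, and those of Tet3 did. Shares of a family add up to the whole, so a share can move without a change in its own gene. The 6 shares tested below are thus not independent, and Tet2 and Dnmt1 themselves did not pass the limma test. Among the methyltransferases, the share of Dnmt1 was 67.8, 68.3 and 66.9% in control and 57.8, 60.1 and 44.6% in the libraries labelled knockout, again without overlap. Dnmt3a went from 11.0 ± 1.67% to 16.2 ± 2.09%, and Dnmt3b from 21.4 ± 2.33% to 29.6 ± 6.66%. In an exact 2-sided permutation test, the shares of Tet1, Tet2, Dnmt1 and Dnmt3a each gave p = 0.1, the smallest that 3 against 3 libraries allow, and those of Tet3 and Dnmt3b gave p = 0.2. Adjusted over the 6 shares these were 0.15 and 0.2, so no share passed.

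**Figure D3:**
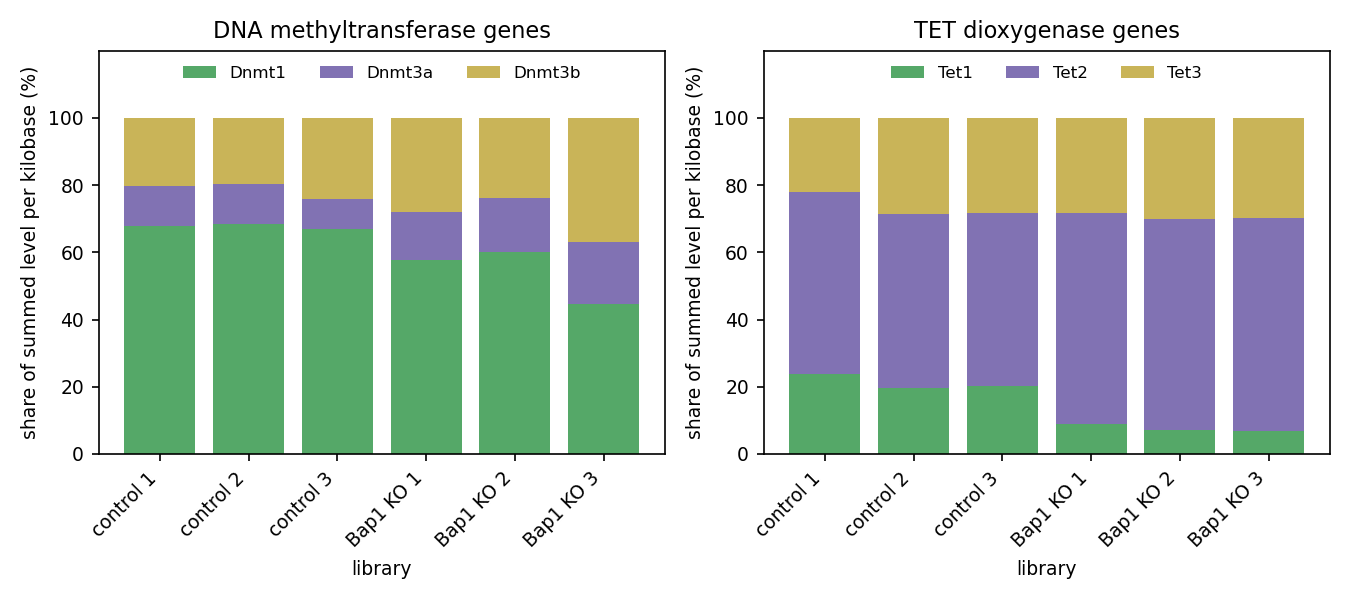
Stacked bars of the share (%) of each gene in the summed level per kilobase of its family, for DNA methyltransferases (left) and TET dioxygenases (right), in each of the 6 libraries. The Tet1 part falls from 19.5 to 23.9% in control to 6.74 to 8.78% in Bap1 KO, and the Dnmt1 part from 66.9 to 68.3% to 44.6 to 60.1%.

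The ratio of normalized counts within a library needs no scaling between libraries. The ratios were built from the same counts as the results above, so their shared direction is not separate evidence. Dnmt3a over Dnmt1 was 0.398, 0.393 and 0.304 in control and 0.558, 0.600 and 0.933 in the libraries labelled knockout. Dnmt3b over Dnmt1 was 0.207, 0.201 and 0.249 against 0.335, 0.276 and 0.573. Tet1 over Tet2 was 0.405, 0.344 and 0.360 against 0.128, 0.103 and 0.0975. None of these 3 ratios overlapped between groups. The ratios were not tested, and how often ratios of other genes lack overlap was not computed. The ratios of Tet3 over Tet2 and of Uhrf1 over Dnmt1 did overlap.

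The other genes of the pathway were read from a list of 46 genes, of which 44 were tested. Of these, 4 rose and 10 fell in the libraries labelled knockout, beside 11.8% higher and 15% lower among all genes tested. The share called, 14 of 44, was near the 26.8% of all genes tested. Counts for each list below are to be read against the same shares. Their median log2 fold change was -0.12. The untested ones were the DNA glycosylase gene Neil2 and the TET2 regulator gene Cxxc4, both with 0 reads in every library. The plot of log2 fold changes by list shows where the called genes fell.

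**Figure D4:**
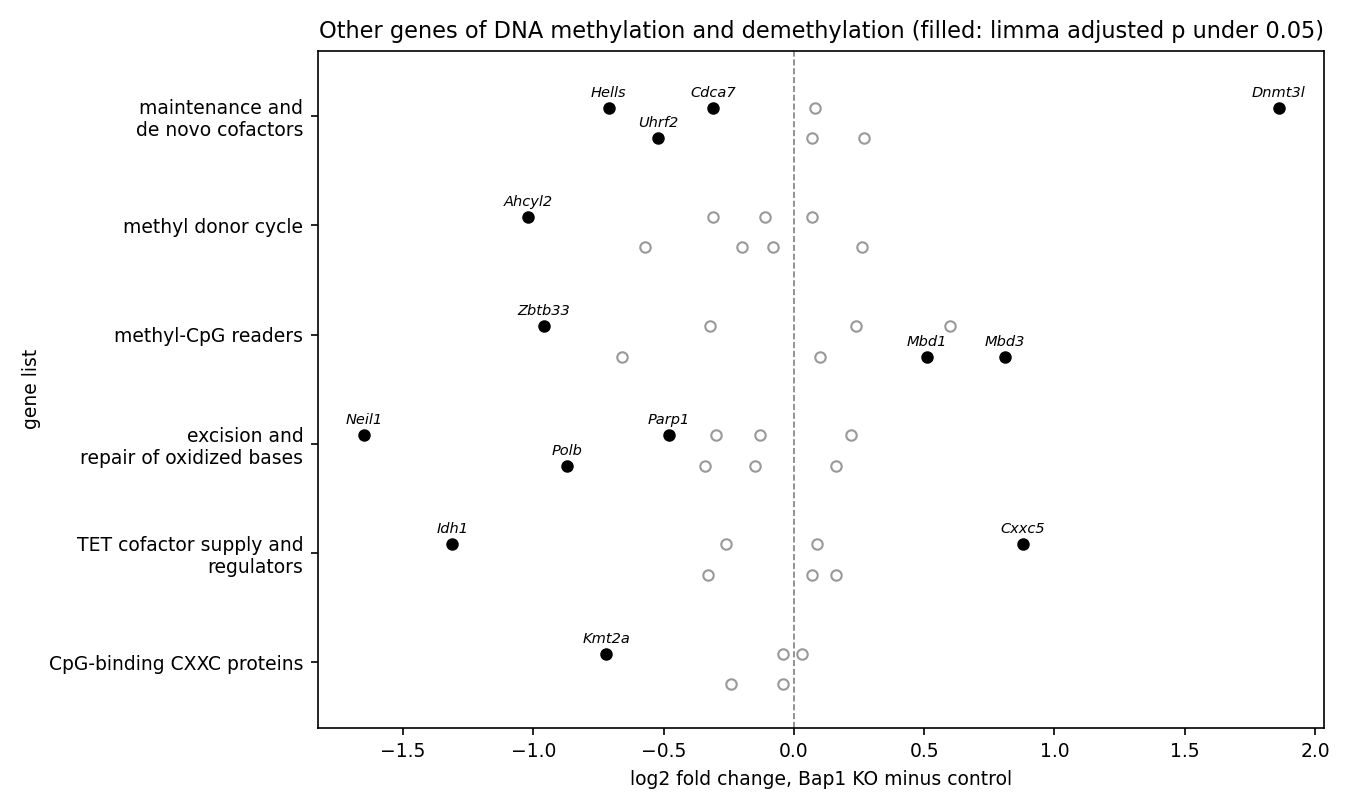
Log2 fold change (Bap1 KO minus control, horizontal axis) of the 44 tested pathway genes in 6 lists, 1 point per gene, filled and named where the limma adjusted p was under 0.05. Named genes run from Neil1 at -1.65 to Dnmt3l at 1.86, and each list holds at least 1.

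Among the cofactors of methylation, 1 of 7 rose and 3 fell. Dnmt3l, a catalytically inactive relative that stimulates DNMT3A and DNMT3B, rose from a low level: 31.99, 11.47 and 31.2 normalized counts in control and 74.67, 70.8 and 115.3 in the libraries labelled knockout (log2 fold change 1.86, SE 0.46, limma adjusted p = 0.012). Hells, a chromatin remodeler needed for methylation of repeats, fell from 3108, 3230 and 3933 to 2411, 1765 and 2101 (-0.71, SE 0.14, limma adjusted p = 0.00402). Neither gene's groups overlapped. Uhrf2, the paralog of Uhrf1, fell by 0.52 in log2 terms (limma adjusted p = 0.0443), and Cdca7, which recruits HELLS, fell by 0.31 (0.0439). The Uhrf2 call was lost without control replicate 1, 2 or 3 or knockout replicate 2 or 3 (limma adjusted p of 0.0561, 0.0874, 0.2, 0.0941 and 0.114). The Cdca7 call was lost without control replicate 1, 2 or 3 or knockout replicate 2 (0.137, 0.134, 0.155 and 0.0859). Both were also lost after GC and length correction (0.0762 and 0.114). Usp7, which stabilizes DNMT1 and UHRF1, was at 820.1 ± 32.26 and 872.9 ± 173.3 normalized counts (SD, n = 3, limma adjusted p = 0.789).

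The methyl donor genes held 0 that rose and 1 that fell among 8. Mat2a, which makes S-adenosylmethionine, was at 13580 ± 199.1 and 12020 ± 2438 normalized counts (SD, n = 3, limma adjusted p = 0.345). Ahcy, which clears the product S-adenosylhomocysteine, was at 966 ± 114.5 and 777.9 ± 49.16 (limma adjusted p = 0.14). The one called was Ahcyl2, a relative of Ahcy, with a log2 fold change of -1.02 (limma adjusted p = 0.0352). That call was lost without control replicate 1, 2 or 3 or knockout replicate 1 or 2 (limma adjusted p of 0.0876, 0.0705, 0.138, 0.0713 and 0.0861).

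Of 8 genes of methyl-CpG readers and their relatives, 2 rose and 1 fell. Mbd3, a NuRD subunit of the MBD family that binds methylated CpG poorly, rose from 893.8, 1177 and 1382 to 1877, 2166 and 1933 normalized counts (log2 fold change 0.81, SE 0.16, limma adjusted p = 0.00369). After GC and length correction its log2 fold change was 0.35 (limma adjusted p = 0.0844). Mbd1 rose by 0.51 in log2 terms (limma adjusted p = 0.0337), which did not hold without control replicate 1, 2 or 3 or knockout replicate 3 (0.0789, 0.101, 0.1 and 0.0913). Zbtb33, which encodes the reader Kaiso, fell by 0.96 (limma adjusted p = 0.0464). It was not called by edgeR (adjusted p = 0.0656), after GC and length correction (0.108), or without control replicate 1, 2 or 3 or knockout replicate 2 or 3 (0.0791, 0.109, 0.15, 0.106 and 0.123).

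Of 9 tested genes that excise and repair oxidized bases, 0 rose and 3 fell. Tdg, the glycosylase that removes the products of TET oxidation, was at 644.6 ± 74.63 and 720.5 ± 96.14 normalized counts (SD, n = 3, limma adjusted p = 0.508). Neil1, another glycosylase of oxidized bases, fell from 215.9, 195.9 and 156.0 to 75.74, 40.6 and 66.23 (log2 fold change -1.65, SE 0.31, limma adjusted p = 0.00248). Polb, the polymerase that fills the repaired gap, fell from 793.4, 791.1 and 806.7 to 415.0, 430.0 and 459.1 (-0.87, SE 0.14, limma adjusted p = 0.00117). In both genes every knockout value lay below every control value. Parp1, a sensor of DNA breaks, fell by 0.48 in log2 terms (limma adjusted p = 0.0219), which did not hold without control replicate 1 or 3 or knockout replicate 2 (0.0811, 0.093 and 0.0506).

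Of 7 tested genes that supply or regulate TET enzymes, 1 rose and 1 fell. Idh1, the cytosolic dehydrogenase that makes the TET cosubstrate 2-oxoglutarate, fell from 9393, 9181 and 8054 to 3807, 4728 and 2510 normalized counts, 2.41-fold (log2 fold change -1.31, SE 0.19, limma adjusted p = 0.000555). Its mitochondrial relative Idh2 was at 14640 ± 269.5 and 12310 ± 1928 (SD, n = 3, limma adjusted p = 0.145). Cxxc5, a CXXC protein that binds TET2, rose from 236.3, 229.3 and 327.1 to 464.0, 533.1 and 448.8 (0.88, SE 0.20, limma adjusted p = 0.00675). Neither called gene overlapped between groups. Ogt, a glycosyltransferase partner of TET proteins, was at 1610 ± 132.9 and 1304 ± 283.5 (limma adjusted p = 0.17). Among 5 other genes of CpG-binding CXXC proteins 0 rose and 1 fell, the histone methyltransferase gene Kmt2a (-0.72, SE 0.17, limma adjusted p = 0.0103; 0.0535 without control replicate 3).

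Of the 14 pathway genes called, 6 were called in the same direction under all 16 other settings: Dnmt3l, Hells, Neil1, Polb, Idh1 and Cxxc5. Among the 7 enzymes the same held for Tet1 alone.

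The genes whose pattern over the 6 libraries was most like that of each enzyme were found by the root mean square difference of log2 values, each gene centred on its own mean. Nearest to Tet1 were Samhd1, a dNTP hydrolase (0.076, log2 fold change -1.64), and Dusp19 (0.088, -1.34). Nearest to Dnmt3a were Fbxw5 (0.080, 0.87) and Luzp1 (0.089, 0.71), and nearest to Dnmt3b were Atxn7 (0.069, 0.54) and Oxld1 (0.073, 0.65). The 4 enzymes without a call lay closer to other genes that changed little: Gm9025 (0.028) and Reep5 (0.029) for Dnmt1, Gle1 (0.021) and the mitotic kinesin gene Kif20a (0.027) for Uhrf1, Timeless (0.028) and Elac2 (0.030) for Tet2, and Iqcc (0.044) for Tet3. With 6 libraries in 2 groups these distances describe the libraries and carry no test.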

How the data were processed

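RNA of 6 GMP libraries (3 per group) was sequenced. Per the labels' protocols, RNA was amplified by PCR with a low-input SMARTer kit before Ion Torrent library preparation, and no molecular identifiers are mentioned. The tools in the submitters' processing notes are BWA 0.7.5a, STAR, HTSeq, Picard and DESeq2, and the builds NCBIM37 and mm9; no roles are given, and use of strand in counting is unknown. The deposited signal per gene is a read count over a size factor of the library, set by the authors: 100% of values above 0 were whole multiples of 1 step (0.8885 to 1.1419 between libraries), within 0.01 of a read, so whole reads could be recovered. The 5 rows that name no gene stayed out of library sizes and tests. They hold reads outside genes (38.39 to 40.9% of reads), with several alignments (26.76 to 28.79%), without one (6.3 to 11.62%) or ambiguous (0.12 to 0.13%), which leaves 22.9 to 25.2% in genes.

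Symbols, exon lengths and GC content came from GENCODE M21 (32897 of 37620 IDs matched), which is on another build. The main test used limma 3.58.1 under R 4.3.3, with a trend of variance on mean level, on log2(value + 1), where the mean value reached 10. Group was the sole term, tests were 2-sided, and p-values were adjusted by Benjamini-Hochberg over all genes tested, with a threshold of 0.05. Folds named as such are ratios of means. Alternatives were edgeR 4.0.16 and DESeq2 1.42.0 on recovered reads, TMM scaling, pseudocounts of 0.5 and 4, 2 other filters, a GC and length correction, a replicate block and leaving out each library. The steps were tested on simulated data, where 14.6% of 1.5-fold, 46.9% of 2-fold and 91.8% of 4-fold changes were called. A gene without a call may thus still differ by such a fold. The simulated data gave 127 calls in all, far fewer than the real data, so these shares may not carry over. Replicates differed far beyond counting noise (chi-square per gene 13.8 to 54.2). Members and lists were chosen with earlier results of these data known. Named pathway genes are all those called; in the S phase list, the 3 with the smallest p; for each enzyme, the 2 genes with the most like pattern, of which 1 is not reported here. Pathway genes named without a call were chosen after their values were seen.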

Additional observations from a re-analysis of the deposited data

How the results depend on the processing

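Of the 7 enzymes, Dnmt1, Tet1, Tet2 and Tet3 kept their direction and their side of the threshold under all 16 alternatives. Uhrf1, never called, was at -0.04 after GC and length correction, with or without the replicate block, and ran from -0.03 to 0.09 with 1 library left out. With 1 library left out, Dnmt3a ran from 0.59 to 0.93 and Dnmt3b from 0.39 to 0.75; the enzymes called higher numbered 0 to 2, pathway genes called lower 4 to 9, S phase genes called higher 0 to 2 and lower 2 to 6, and genes called in the whole data set 1058 to 1796 higher and 1413 to 2354 lower. Over every gene with a read, 6 pathway genes and 2 S phase genes were lower. S phase genes called lower were 2 in edgeR and 2 after GC and length correction, with or without the replicate block; those called higher were 1 in DESeq2, 3 after that correction and 2 with the block added. The cause was not tested.

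Replicate numbers gave no sign of pairing: deviations from group means of same-numbered libraries correlated at -0.104, 0.042 and -0.058 across genes. Those of differently numbered libraries correlated at -0.07 to 0.119. These values cannot show that the libraries were unpaired. The replicate block left the enzyme calls at 2 higher and 1 lower (Tet1 adjusted p = 0.00135), pathway calls at 5 and 7, and all calls at 1550 higher and 2014 lower. It also ended the calls of Uhrf2 (adjusted p = 0.0711), Cdca7 (0.0971) and Zbtb33 (0.0554). Recovered reads ran from 89 for Tet1 to 2658 for Dnmt1 among the enzymes. The chi-square per gene between replicates, 13.8 to 54.2, was not computed for the enzymes alone. Tet1 had 97, 93 and 89 reads in the libraries labelled knockout, a spread that did not exceed counting noise. Differences in family shares kept their sign with longest transcripts and with each library left out.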
